A study of Mus musculus with 4 samples.

Results

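The cells described here carried at least 1 unique molecular identifier (UMI, a counted RNA molecule) of Atoh1 and none of 5 genes transcribed from S phase to mitosis (Mki67, Top2a, Cenpf, Birc5 and Pclaf). They also had no UMI of Gad1, Gad2, Pax2, Pdgfra, C1qa or Cldn5, which mark interneurons, oligodendrocyte precursors, microglia and endothelium. Of 42576 cells with at least 500 detected genes and at most 20% mitochondrial UMIs, 377 met this rule. At P10 there were 59 of 14280 cells in wild type (WT) and 72 of 6593 in the conditional knockout (cKO), and at P14 192 of 15395 and 54 of 6308. They were chosen by the counts of these 12 genes and are called members below. Where 4 values follow each other, P10 comes before P14 and WT before cKO.

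Droplet-based single-cell RNA sequencing was done on whole mouse cerebellum with the meninges removed, at postnatal day 10 (P10) and postnatal day 14 (P14). At each age there was 1 library of WT mice and 1 of mice labelled Eftud2 cKO, a conditional knockout of a GTPase in the U5 small nuclear ribonucleoprotein of the spliceosome. The title of the series places the deficiency in Purkinje cells, while the labels used here name no Cre driver, deleted exon, sex or number of pooled animals. As each group is 1 library, differences at a single age have no replicate check, and all intervals are 95% intervals for counting error only.

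Atoh1 encodes the basic helix-loop-helix factor that specifies granule cells, and the cells that express it form the external granule layer of the postnatal cerebellum. Sonic hedgehog (Shh), released by Purkinje cells, binds Ptch1 on these progenitors, frees Smo and activates GLI factors, which sustain Mycn and cyclin D transcription and cell division. Cells that leave the cycle lose Atoh1 and switch on neuronal genes such as Neurod1, Nhlh1 and Cntn2 before they migrate inward. Members were set beside 2 neighbouring classes from the same libraries. Cycling Atoh1 positive cells had at least 1 UMI of the 5 cycle genes (1613 cells), and newborn granule neurons had no Atoh1 or cycle UMI and at least 1 UMI of both Nhlh1 and Cntn2 (5850 cells). Since counts of these genes set the classes, differences between classes are descriptions with no test.

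The libraries held 91091692 to 158017834 UMIs, and the median cell had 7838 to 12347. Members had medians of 7395 (WT) and 10842 UMIs (cKO) at P10 and of 8108.5 and 12600 at P14, so both cKO libraries were deeper per cell. Several results below are also given with each cell thinned to 5000 or 2000 UMIs and the rule applied anew, which changes the members as well as the depth. At 2000 UMIs, 72, 55, 104 and 27 cells met the rule, of which 19, 18, 60 and 7 were members with all UMIs too. The others were outside the rule with all UMIs, so ratios in thinned cells describe partly other cells. Libraries shared 12 to 83 barcodes, at most 0.744% of the smaller library. The matrices came from different versions of Cell Ranger at P10 and the same version at P14, per the file headers. At P10 the ratio of cKO over WT followed intron length. Genes with at most 8728 intron bases had a median log2 ratio of -0.68, and those with at least 73917 a median of 1.63, against -0.11 and 0.10 at P14. P14 therefore carries the genotype comparison, and P10 values stand beside it.

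The label of progenitors outside S, G2 and M phase was only partly met by the data. Of the other 4 progenitor markers, at least 2 were detected in 308 of 377 members (81.7%), and 17 members had none. Barhl1, a homeobox factor downstream of Atoh1, was detected in 79.7% and 93.1% of members at P10 and 82.3% and 83.3% at P14 in WT and cKO. Among microglia and macrophages (at least 5 UMIs of C1qb, C1qc and Csf1r together and no cycle UMI), which should lack it, 7.07% to 18.9% had a Barhl1 UMI. Sfrp1, a secreted Wnt-binding protein, was detected in 69.8% to 90.3% of members and 6.94% to 9.26% of microglia and macrophages. Newborn granule neurons had a Barhl1 UMI in 70.3% to 81.6% and an Sfrp1 UMI in 46.6% to 57.6%. In P14 cKO, Barhl1 was detected in 83.3% of members and 81.6% of newborn neurons, so its detection did not set members apart from newborn neurons there. Gli1, the GLI factor whose transcription reads out Shh signalling, was detected in only 10.2%, 15.3%, 4.69% and 3.70% of members.

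Most members also carried transcripts of newborn neurons. A UMI of Nhlh1 or Cntn2 was present in 326 of 377 (86.5%), namely in 67.8% (WT) and 97.2% (cKO) at P10 and 85.9% and 94.4% at P14. With the same members thinned to 2000 UMIs these shares were 38.2%, 59.7%, 58.7% and 77.4%, against 21.0% to 25.1% of cycling Atoh1 positive cells and 6.11% to 10.4% of microglia and macrophages. UMIs of at least 5 of 24 S phase genes that the rule did not use were present in 132 members, and of at least 5 of 20 G2 and M phase genes in 13. Single S phase genes were also detected in other cells: Pcna had a UMI in 27.8% to 49.2% of members and in 33.9% to 53.1% of microglia and macrophages, so S phase is not read from these counts. The group is therefore named by its rule.

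Membership rested on few molecules. Atoh1 was represented by 1 UMI in 315 of 377 members (83.6%), by 2 in 47 and by 3 or more in 15, with at most 5. Among all cells that met the 0-UMI conditions, an Atoh1 UMI was found in 3.22% (WT) and 3.44% (cKO) at P10 and in 2.53% and 2.16% at P14. Among microglia and macrophages the shares were 0.982%, 0.881%, 0% (0 of 648, which allows up to 0.568%) and 0.920%. Their medians were 6294, 10227, 8419.5 and 14235 UMIs, against 4920, 8744, 6539 and 9715.5 in the cells that could be members. Thinned to 2000 UMIs, Atoh1 was found in 0.331% (0.133% to 0.681%) of the cells that could be members in P14 cKO. It was found in 0 of 387 microglia and macrophages, which allows up to 0.949%. At that depth the 7 cells with Atoh1 in P14 cKO were not above the limit set by these background cells.

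Cells on either side of the limits differed by degree. The 147 cells that missed the rule by a single cycle UMI had Barhl1 at 316 to 430 CPM (counts per 1000000, the share of a gene in the UMIs summed over the cells) and S phase genes at 1238 to 1357 CPM in the 4 libraries. Members with exactly 1 Atoh1 UMI had Barhl1 at 228 to 330 CPM and S phase genes at 1274 and 762 CPM at P10 and 739 and 362 at P14 in WT and cKO. The 13631 cells that lacked only the Atoh1 UMI had Barhl1 at 125 to 157 CPM and Sfrp1 at 55.0 to 108 CPM. Another 134 cells met all but 1 UMI of the 6 excluded genes.

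At P10 members made up 0.413% of WT cells (0.315% to 0.533%) and 1.09% of cKO cells (0.855% to 1.37%). At P14 they made up 1.25% (1.08% to 1.44%) and 0.856% (0.644% to 1.12%). The log2 ratio of cKO over WT was 1.40 (0.89 to 1.92) at P10 and -0.54 (-1.01 to -0.10) at P14, so the order of the genotypes differed between the ages. With 5000 UMIs per cell the shares were 0.608%, 1.27%, 1.19% and 0.779%, and the ratios 1.06 and -0.61. With 2000 UMIs they were 0.571%, 0.868%, 0.727% and 0.484%, and the ratios 0.61 (0.07 to 1.13) and -0.59 (-1.26 to 0.03). The P10 ratio was thus smaller at 2000 UMIs, and the P14 ratio had a similar size with an interval that held 0.

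Among Atoh1 positive cells, the part outside the cycle genes was 9.31% (7.16% to 11.8%) in WT and 18.4% (14.7% to 22.6%) in cKO at P10, and 24.6% (21.6% to 27.7%) in WT and 29.5% (23.0% to 36.7%) in cKO at P14. The intervals of P14 WT and P14 cKO overlapped, and those of the P10 libraries did not. At 2000 UMIs the 4 values were 19.7%, 40.1%, 39.5% and 47.4%, in which P10 cKO and P14 WT were close and P10 WT remained lowest. The 51 members without Nhlh1 and Cntn2 UMIs were 19 and 2 at P10 and 27 and 3 at P14 in WT and cKO. For these the log2 ratio of shares was -2.13 (-5.28 to -0.08) at P10 and -1.88 (-4.25 to -0.18) at P14, lower in cKO at both ages, on 2 and 3 cells.

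**Figure D1:**
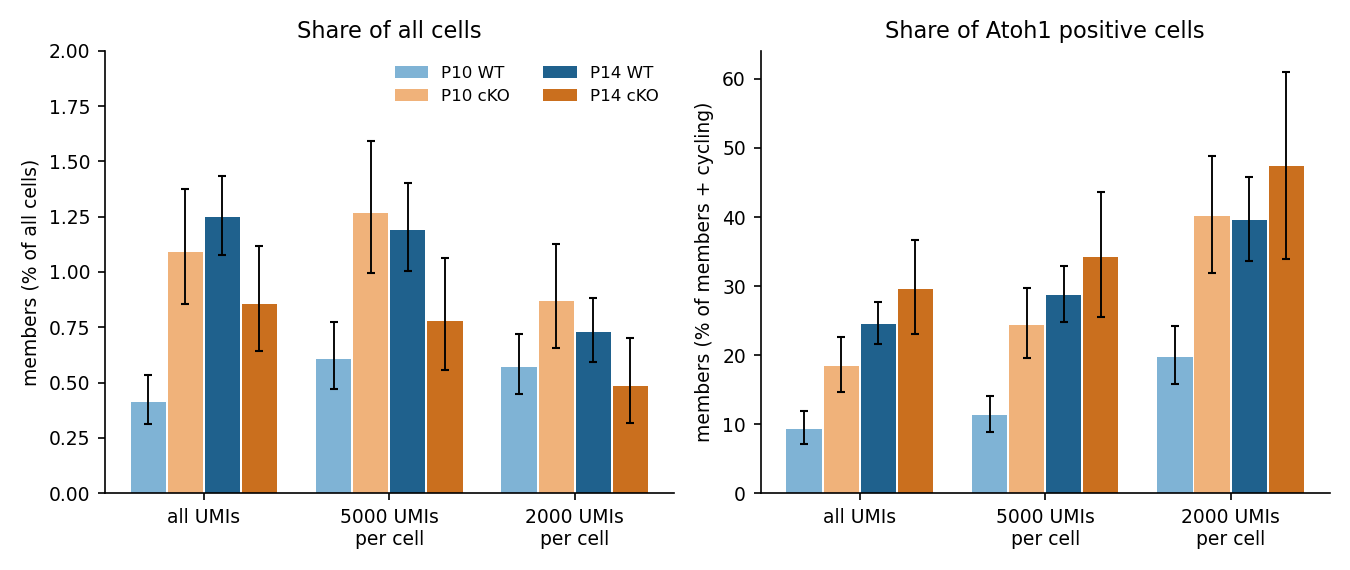
Share of cells that are members (left, percent of all cells) and share of Atoh1 positive cells that are members (right, percent), for the 4 libraries with all UMIs and with each cell thinned to 5000 or 2000 UMIs. Bars are 1 library each and error lines are exact 95% binomial intervals; with all UMIs the left bars stand at 0.413%, 1.09%, 1.25% and 0.856%, and P10 WT is lowest on the right at each depth.

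Summed over the 5 progenitor markers, which include Atoh1, members at P14 lay below cycling cells in both genotypes, at 1148 against 1321 CPM in WT and 798 against 1327.5 CPM in cKO. At P10 members lay above cycling cells in WT, at 1717 against 1536 CPM, and level with them in cKO, at 1339 against 1343 CPM. Barhl1, Mfap4, Sfrp1 and Gli1 were higher in members than in newborn neurons in all 4 libraries. Atoh1 itself stood at 182 and 116 CPM at P10 and 138 and 80.0 at P14 in WT and cKO, a level that the rule set. Barhl1 stood at 361, 351, 280 and 233 CPM, while cycling cells had 331, 320, 283 and 328 CPM and newborn neurons 193 to 275 CPM. Mfap4, an extracellular matrix glycoprotein of these progenitors, stood at 586, 376, 461 and 289 CPM, where cycling cells had 464, 363, 521 and 505 CPM. Sfrp1 was at 572, 476, 263 and 193 CPM, above the 83.9 to 157 CPM of newborn neurons in each library. Gli1 rested on 7, 17, 10 and 2 UMIs, or 15.9, 20.3, 6.16 and 2.67 CPM. Cycling cells had Gli1 at 20.2 to 24.9 CPM, newborn neurons at 0.0907 to 0.707 CPM.

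Between genotypes at P14, 7115 genes had at least 50 UMIs over both member groups. Their median log2 ratio was -0.01, 49.2% were higher in cKO, and 15.5% were past 1.5-fold, 8.12% upward and 7.39% downward. Apart from Atoh1, 3 progenitor markers had that many UMIs, and all 3 were lower in cKO members, Mfap4 past 1.5-fold. The log2 ratios of cKO over WT were -0.67 (-0.90 to -0.45) for Mfap4, -0.44 (-0.73 to -0.17) for Sfrp1 and -0.26 (-0.52 to -0.01) for Barhl1, and Atoh1, which the rule used, had 138 CPM in WT and 80.0 in cKO. In cycling cells the same ratios were -0.04, 0.02 and 0.21. With 5000 UMIs per cell the ratio was -0.18 for Mfap4 and -0.13 for Sfrp1, with intervals that held 0, and with 2000 UMIs it was 0.40 (-0.39 to 1.10) for Sfrp1. The lower marker levels of cKO members were thus present with all UMIs. They were not resolved among the cells that met the rule after thinning, which are partly other cells and do not check these ratios. Of a list of 14 progenitor identity genes, 11 had at least 50 UMIs at P14. Of these 5 were higher and 6 lower in cKO members, 1 of them past 1.5-fold lower, with a median log2 ratio of -0.02. Examples of lineage regulators that were level were Pax6 at 448 and 476 CPM, Zic1 at 937 and 917 CPM and Nfib at 4344 and 4280 CPM in WT and cKO at P14.

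**Figure D2:**
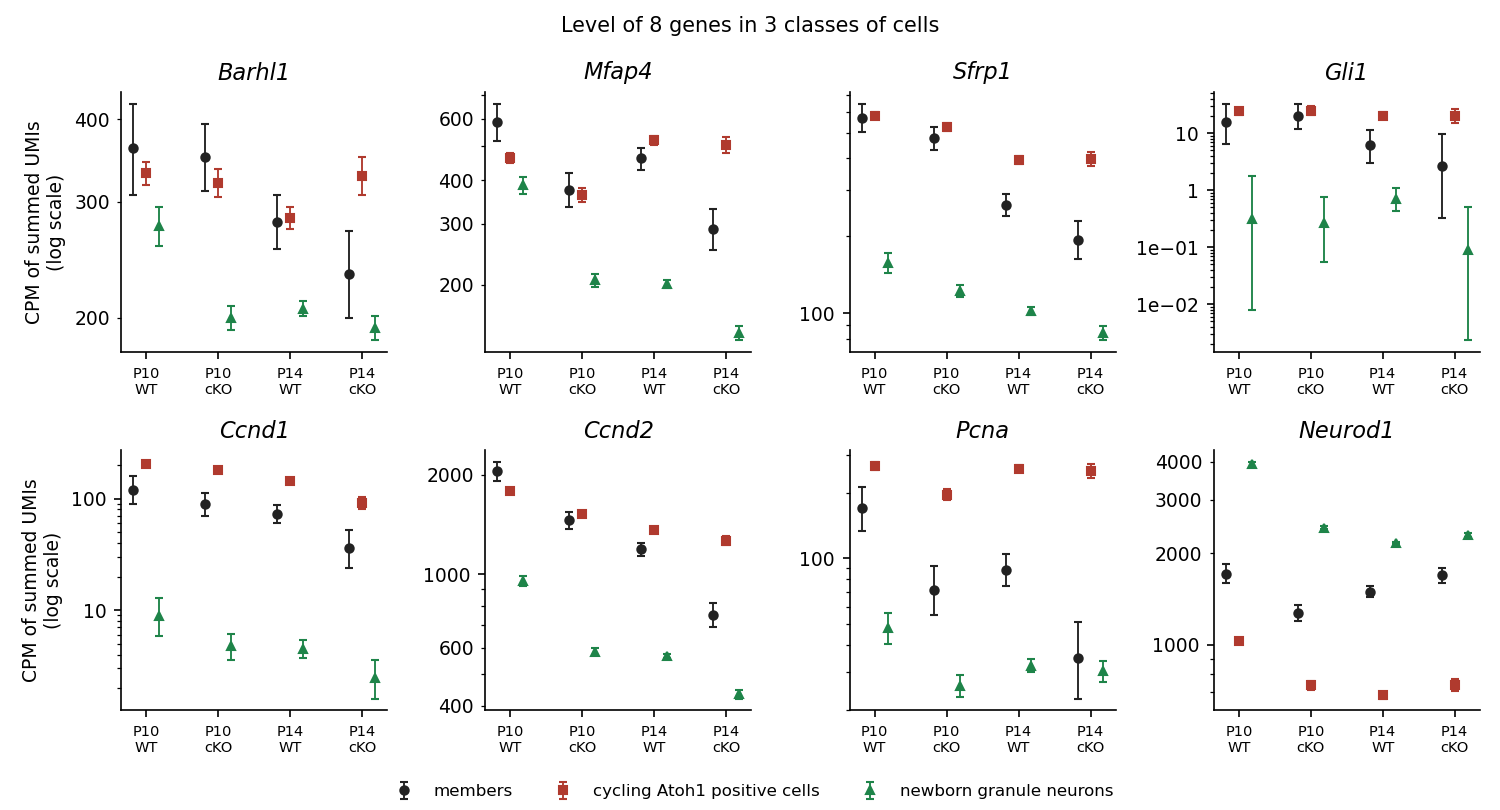
Level (CPM of summed UMIs, log scale) of Barhl1, Mfap4, Sfrp1, Gli1, Ccnd1, Ccnd2, Pcna and Neurod1 in members (black circles), cycling Atoh1 positive cells (red squares) and newborn granule neurons (green triangles) of each library. Error lines are exact 95% Poisson intervals; for Ccnd1 and Neurod1 members lie between both other classes in all 4 libraries, whereas Pcna of P14 cKO members, at 34.6 CPM, lies at the 30.2 CPM of newborn neurons.

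Genes of the Shh pathway were read in signalling order. Among receptors and transducers, 6 of 10 had at least 50 UMIs over both P14 libraries. All 6 were lower in cKO members, 2 of them past 1.5-fold, with a median log2 ratio of -0.37. The medians of the same genes were -0.14 in cycling cells and -0.27 in newborn neurons.

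Ptch1, the Shh receptor and a target of the pathway, stood at 127 CPM in P14 WT and 123 in P14 cKO. Smo, the membrane protein that passes the signal on, was at 54.8 and 42.6 CPM. Ptch1 was thus nearly equal between genotypes. The coreceptor Boc was at 61.0 and 50.6 CPM and Gas1, another coreceptor, at 27.1 and 14.7 CPM (44 and 11 UMIs). Sufu, which restrains GLI proteins, was at 123 and 93.3 CPM (-0.39, -0.82 to -0.00). The intervals of Ptch1, Smo, Boc and Gas1 included 0. With 5000 UMIs per cell 5 of the 6 were lower and the summed list had a log2 ratio of -0.03 (-0.41 to 0.32). The difference of the list was thus not resolved among the cells that met the rule at that depth.

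The GLI factors showed low counts. Gli2, the main activator, was at 56.7 CPM in P14 WT and 38.6 in P14 cKO members, from 92 and 29 UMIs. Gli3, mostly a repressor, was at 31.4 and 13.3 CPM, a log2 ratio of -1.18 (-2.38 to -0.24) from 51 and 10 UMIs. In cycling cells Gli2 was at 120 and 117 CPM, so both genotypes had less Gli2 in members than in cycling cells, and the genotypes were closer there.

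Of 9 Shh target genes, 5 had enough UMIs at P14, and all 5 were lower in cKO members, with a median of -0.44. Past 1.5-fold were 2, Ccnd1 and Ccnd2, and the list also holds the marker Sfrp1. Ccnd1, the cyclin D that drives G1 in progenitors, stood at 120 (WT) and 88.5 CPM (cKO) at P10 and at 73.3 and 36.0 CPM at P14. Its P14 log2 ratio was -1.01 (-1.69 to -0.41), and it was also lower in cycling cells (143 and 91.1 CPM, -0.65) and newborn neurons (4.50 and 2.45 CPM, -0.86). At 5000 UMIs per cell the ratio was -1.47 (-3.27 to -0.29) on 5 and 55 UMIs, and at 2000 UMIs -2.14 (-8.06 to -0.09) on 1 and 25. Ccnd1 was thus lower in cKO members in each of these settings. Ccnd2, the more abundant cyclin D of granule progenitors, was at 2053 and 1456 CPM at P10 and 1189 and 752 at P14 in WT and cKO. Its P14 ratio of -0.66 (-0.80 to -0.53) became 0.31 (-0.05 to 0.64) at 2000 UMIs. Mycn was at 139, 80.2, 45.6 and 33.3 CPM. The summed targets had a P14 log2 ratio of -0.61 (-0.73 to -0.50), which was -0.34 (-0.53 to -0.15) at 5000 UMIs, 0.27 (-0.04 to 0.55) at 2000 UMIs and 0.0048 (-0.22 to 0.22) in the 5 and 24 members with at least 2 Atoh1 UMIs.

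The list of G1 regulators also holds Ccnd1 and Ccnd2, so it is not separate from the Shh targets. At P14, 9 of 12 had enough UMIs, of which 7 were lower in cKO members and 2 were higher, with a median of -0.46. The 4 past 1.5-fold were Ccnd1, Ccnd2, Cdk4 and Cdk6. Ccnd2 alone, at 1189 CPM in P14 WT, was most of the summed 2001 CPM of this list and 1651 CPM of the Shh targets. Cdk4, the kinase partner of the D cyclins, was at 346 CPM in WT and 196 in cKO, a log2 ratio of -0.82 (-1.09 to -0.56). Cdk6, the related kinase, had 108 and 21 UMIs, a ratio of -1.22 (-2.00 to -0.57). Rb1, which the kinases inactivate, was at 125 and 149 CPM. The kinases were thus lower and Rb1 was not, with an interval for Rb1 of -0.09 to 0.60. E2f3, an activator of S phase genes, was at 77.6 and 56.0 CPM. The summed list had a ratio of -0.60 with all UMIs, -0.40 (-0.58 to -0.23) at 5000 UMIs and 0.17 (-0.12 to 0.44) at 2000 UMIs.

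With all UMIs, S phase genes were lower in cKO members than in WT members at P14, and at 2000 UMIs per cell the interval of the ratio held 0. The list holds 24 genes of DNA replication that the rule did not use, and 13 had at least 50 UMIs over both P14 libraries. All 13 were lower in cKO members and 12 were past 1.5-fold, with a median log2 ratio of -0.94, against -0.04 in cycling cells and -0.20 in newborn neurons. Summed, the 24 genes stood in members at 1515 (WT) and 955 CPM (cKO) at P10 and at 856 and 410 CPM at P14. Cycling cells had 2637 to 3097 CPM and newborn neurons 284 to 482 CPM, so P14 cKO members were the nearest to newborn neurons. The P14 log2 ratio of the summed list was -1.06 (-1.24 to -0.88).

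This gap differed between settings. Members had a median of 12600 UMIs in P14 cKO and 8108.5 in P14 WT. Of Atoh1 positive cells at P14, 24.6% in WT and 29.5% in cKO were members with all UMIs, and 39.5% and 47.4% with 2000 UMIs. With 5000 UMIs per cell the summed list stood at 961 CPM in P14 WT and 754 in P14 cKO, a ratio of -0.35 (-0.62 to -0.09), with 7 of the 13 genes lower and 4 past 1.5-fold. With 2000 UMIs it stood at 1043 and 1296 CPM, with a ratio of 0.32 (-0.10 to 0.71), with 9 of the 13 genes higher. The ratio at P14 thus had the opposite sign at 2000 UMIs, with an interval that held 0. Thinning changed the members too, to 142 and 39 cells at 5000 UMIs and 104 and 27 at 2000. With the original members thinned to 2000 UMIs, Pcna had a UMI in 36 of 189 in P14 WT and 1 of 53 in P14 cKO. Mcm2 had one in 9 of 189 and 1 of 53. Those members were chosen with all UMIs, at depths that differed between genotypes, so these shares are not a check of depth. The part of depth and of membership in the change of the summed ratio was not tested. The order of P10 WT above P10 cKO held at each depth, at 1501 and 969 CPM with 5000 UMIs and 1938 and 1173 with 2000.

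Single replication genes had the following levels. Pcna, the sliding clamp of DNA polymerase, was at 170 and 71.8 CPM at P10 and 88.7 and 34.6 at P14 in WT and cKO. Dut, which removes dUTP, was at 268, 114, 127 and 44.0 CPM. Mcm3, a subunit of the replicative helicase, was at 99.9, 45.5, 48.0 and 17.3 CPM. For all 3, P10 WT was highest and P14 cKO lowest. Their P14 log2 ratios were -1.33 (-2.02 to -0.75), -1.52 (-2.11 to -1.0) and -1.43 (-2.44 to -0.61). At reduced depth each gene had a positive ratio in at least 1 setting: Pcna 0.12 (-0.78 to 0.89) at 5000 UMIs, Dut 0.04 (-1.26 to 1.07) and Mcm3 0.65 (-1.27 to 2.15) at 2000 UMIs. Those intervals rest on 5 to 58 UMIs per group.

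Part of the S phase genes had a promoter feature that the rule did not use. The letters TTTCCCGC or TTTGGCGC, forms of the E2F site, were searched on both strands from 250 bases before to 50 after the start in the RefSeq promoter table of GRCm38.p6. They occurred in 8 of the 21 S phase genes matched by symbol (38.1%) and not in the windows of the other 13. They occurred in 0 of the 14 matched newborn neuron genes and in 514 of all 32851 promoters (1.56%). The lists were counted per gene, with a match in any window of the gene, and all promoters per window, so these shares have unlike units. Below, 180 bases before the start are shown for Mcm6 (chr1:128359706-128359885, minus strand) and Dtl (chr1:191575545-191575724, minus strand), 5′ to 3′, because both are helicase or replication licensing genes of the list with the site just upstream. Capitals mark the matched letters, which begin 110 and 47 bases before the start in Mcm6 and 8 bases before it in Dtl.
Mcm6: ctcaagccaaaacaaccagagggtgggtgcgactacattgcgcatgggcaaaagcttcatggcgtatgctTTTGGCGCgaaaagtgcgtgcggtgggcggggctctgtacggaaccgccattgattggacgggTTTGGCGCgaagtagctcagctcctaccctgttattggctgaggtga
Dtl: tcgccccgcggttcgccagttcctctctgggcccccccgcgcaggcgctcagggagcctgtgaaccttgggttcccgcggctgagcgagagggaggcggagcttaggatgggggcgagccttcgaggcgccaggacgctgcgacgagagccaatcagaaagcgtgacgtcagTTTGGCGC
Mcm6 stood at 74.9 and 64.6 CPM at P10 and 46.2 and 25.3 at P14 in members of WT and cKO, and at 123 to 154 CPM in cycling cells. Dtl, which directs Cdt1 to degradation, stood at 45.4, 53.8, 27.7 and 18.7 CPM, and at 91.2 to 110 CPM in cycling cells. Both genes were lower in members than in cycling cells in all 4 libraries. A match describes letters only.

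**Figure D3:**
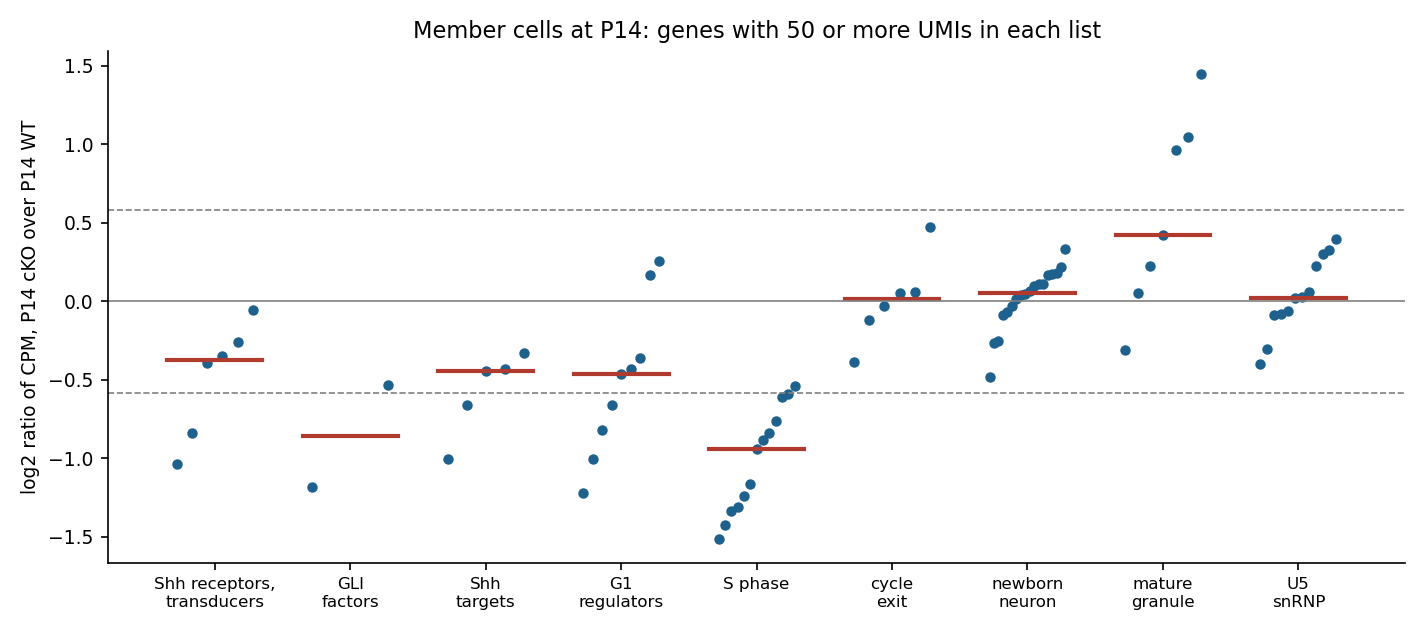
Log2 ratio of P14 cKO over P14 WT in members for each gene with at least 50 UMIs, by list (points), with the list median (red bars); dashed lines mark 1.5-fold. All 13 S phase points lie below 0 with a median of -0.94, and the 18 newborn neuron points lie within 1.5-fold with a median of 0.05.

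**Figure D4:**
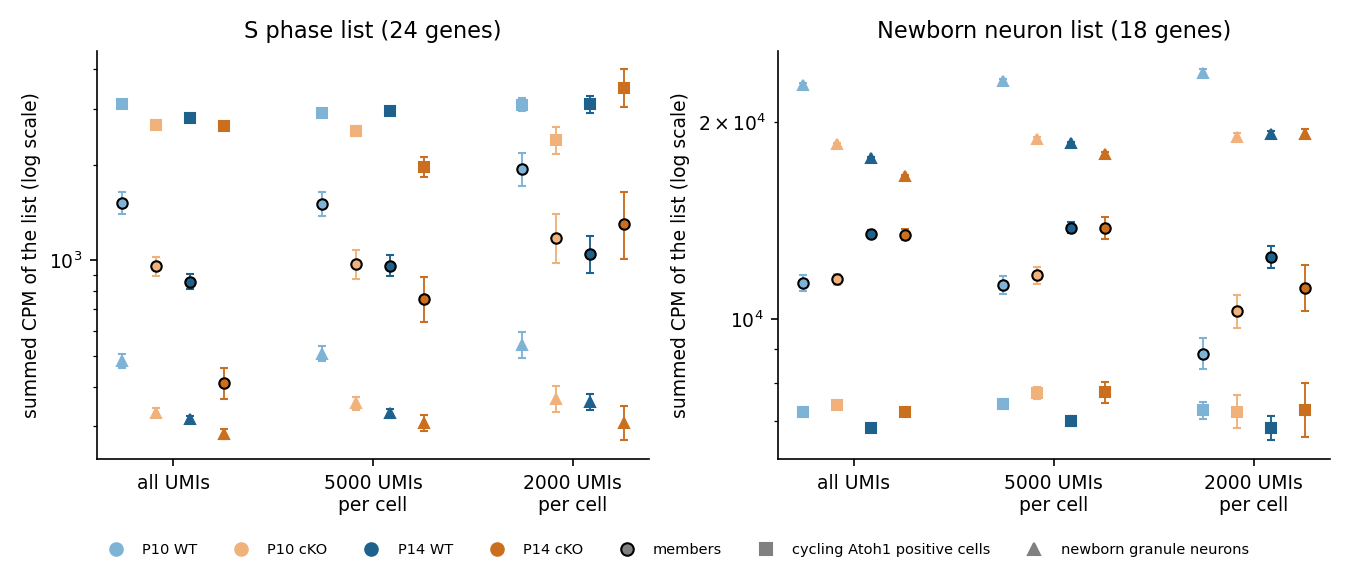
Summed level (CPM, log scale) of the S phase list (left) and the newborn neuron list (right) with all UMIs and with 5000 or 2000 UMIs per cell, for members (outlined circles), cycling Atoh1 positive cells (squares) and newborn granule neurons (triangles), with exact 95% Poisson intervals. In members the S phase list of P14 cKO is at 410, 754 and 1296 CPM from left to right, and that of P14 WT at 856, 961 and 1043 CPM.

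Genes of cycle exit were level between genotypes. At P14, 6 of 10 had enough UMIs, 3 higher and 3 lower in cKO members, none past 1.5-fold, with a median of 0.01. Cdkn1b, the p27 inhibitor of cyclin-dependent kinases, stood at 295 and 242 CPM at P10 and 258 and 237 at P14 in WT and cKO. Btg1, an antiproliferative gene, stood at 302, 213, 259 and 269 CPM. Btg1 was above the 155 to 180 CPM of cycling cells and below the 284 to 419 CPM of newborn neurons in each library.

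Newborn neuron genes were close to even between genotypes at P14. All 18 had enough UMIs at P14; 12 were higher and 6 lower in cKO members, none past 1.5-fold, and the median was 0.05. The summed list stood at 11353 (WT) and 11505 CPM (cKO) at P10 and 13516 and 13456 CPM at P14, a P14 log2 ratio of -0.01 (-0.04 to 0.03). At 5000 UMIs the ratio was -0.0014 (-0.06 to 0.06), and at 2000 UMIs -0.15 (-0.29 to -0.03). Neurod1, the factor that drives granule neuron differentiation, was at 1715, 1274, 1496 and 1691 CPM, between the 683 to 1031 CPM of cycling cells and the 2166 to 3923 CPM of newborn neurons. Cntn2, an adhesion molecule of premigratory granule neurons, was at 295, 373, 451 and 569 CPM. Its P14 log2 ratio was 0.33 (0.16 to 0.51), and 0.09 (-0.28 to 0.43) at 5000 UMIs. Igfbpl1, an insulin-like growth factor binding protein of newborn neurons, was at 1321 CPM in P14 WT and 945 in P14 cKO, a ratio of -0.48 (-0.61 to -0.36), and -0.37 in newborn neurons.

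Several genes of later granule neurons were higher in cKO members at P14. Of 16 mature granule genes, 7 had enough UMIs at P14, with 6 higher in cKO, 3 past 1.5-fold, and a median of 0.42, beside the 8.12% of all genes past it upward. Camk4, a calcium-dependent kinase, was at 49.3 CPM in P14 WT and 135 in P14 cKO, a log2 ratio of 1.45 (1.01 to 1.89), and 1.03 in newborn neurons. Kcnd2, an A-type potassium channel, was at 115 and 224 CPM, with a ratio of 0.97 (0.66 to 1.27), and 1.29 in newborn neurons. Cbln1, a synaptic organiser, was at 26.5 and 54.6 CPM. Gabra6, which marks mature granule neurons, was at 0 in 3 libraries and had 1 UMI in P10 cKO. Gabrd and Grin2c had 0 UMIs in all 4 libraries, and Cbln3 had 1 (WT) and 0 (cKO) at P14. None of these genes was therefore among the 7. Of the 7, Chn2 was the one lower in cKO, at 61.6 and 49.3 CPM. Reln (870 and 903 CPM) and Snap25 (584 and 682 CPM) made up most of the summed list, at 1785 CPM in P14 WT and 2192 in P14 cKO. The summed list had a ratio of 0.30 (0.21 to 0.38), and 0.14 (-0.03 to 0.31) at 5000 UMIs.

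Of 20 genes of migration and polarity, 15 had enough UMIs at P14; 9 were higher, 4 of them past 1.5-fold, and 6 lower, 2 past it, with a median of 0.19. Plxna2, a semaphorin receptor of migrating granule cells, was at 124 CPM in P14 WT and 279 in P14 cKO, a log2 ratio of 1.16 (0.88 to 1.45), and 0.62 in newborn neurons. Unc5c, a netrin receptor, was at 902 and 1454 CPM (0.69, 0.57 to 0.80). Dcc, the attractive netrin receptor, was lower in cKO, at 6261 and 4047 CPM (-0.63, -0.69 to -0.57). The 2 netrin receptors thus differed in opposite directions. In cycling cells their ratios were -0.06 for Unc5c and 0.01 for Dcc. Both genes have long introns, and at P10, where program versions differed, their ratios were 3.02 and 5.72.

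Among all genes, some of the largest P14 ratios were carried by 1 cell. Of 119 Cd74 UMIs in P14 cKO members, 118 came from a single member, and a single P14 WT member held 2679 of 2910 Ttr UMIs (92.1%). Others were spread over more members. Fgf14, a modulator of sodium channels, was at 61.0 CPM in P14 WT and 402 in P14 cKO, with a UMI in 24 of 192 and 18 of 54 members. Its log2 ratio was 2.72 (2.39 to 3.06), 2.47 without the member highest for it in each library, and 1.83 in newborn neurons. Lrp1b, a receptor of the low-density lipoprotein receptor family, was at 168 and 606 CPM, with a ratio of 1.85 (1.64 to 2.08), and 1.14 in newborn neurons. Cdh18, a cadherin, was at 14.8 and 125 CPM, with a ratio of 3.06 (2.42 to 3.79), on 14 and 16 members with a UMI, and 1.95 at 5000 UMIs per cell. All 3 genes remained higher in cKO at 5000 and 2000 UMIs per cell. In the 3 cKO and 27 WT members at P14 with no Nhlh1 or Cntn2 UMI, Fgf14 had 0 and 10 UMIs.

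The Notch, the BMP and Id, and the primary cilium lists had medians from -0.09 to 0.17 at P14. Of 17 Notch pathway genes 5 had enough UMIs, with 2 past 1.5-fold lower in cKO and a median of -0.09. These were Hes6 (-0.61, -1.14 to -0.12) and Hey1, a Notch target (-0.72, -1.46 to -0.08), both named after their values were seen. Of 15 BMP and Id genes 8 had enough UMIs, none past 1.5-fold, with a median of 0.09. Of 14 primary cilium genes 9 had enough UMIs, 7 higher and 1 past 1.5-fold, with a median of 0.17. Only 2 of 22 interferon genes and 2 of 20 G2 and M phase genes reached 50 UMIs, with medians of 0.41 and -0.27.

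Eftud2 itself was detected at 63.6 and 61.0 CPM at P10 and 54.2 and 50.6 at P14 in members of WT and cKO, from 28, 51, 88 and 38 UMIs. The P14 log2 ratio was -0.09 (-0.69 to 0.47). The gene lies at chr11:102838473-102880985 on the minus strand of GRCm38. The title places the deficiency in Purkinje cells, and the labels name no Cre driver or deleted exon. Eftud2 counts in members therefore do not check the genotype. Of 12 U5 genes, 7 were higher and 5 lower in cKO at P14, none past 1.5-fold, with a median of 0.02. Of 19 p53 genes, 10 had enough UMIs, with a median of -0.01.

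At P10, 57.4% of 4989 genes were past 1.5-fold, 35.4% upward and 21.9% downward. Of 11 S phase genes 8 were lower in P10 cKO members, 6 past 1.5-fold, with a median of -0.79, against -0.28 in cycling cells. Pcna and Dut had ratios of -1.24 (-1.76 to -0.74) and -1.24 (-1.64 to -0.84). The median of all genes with at most 8728 intron bases was -0.68, while Pcna has 1753 intron bases and Dut 9009. The Shh receptors and transducers, several with long introns, had 5 of 6 higher, all 5 past 1.5-fold, and a median of 1.71, where cycling cells had 1.72.

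Within cKO, P14 was compared with P10, which shares the P14 cKO library with the genotype comparison, on matrices of different program versions (7.0.1 and 7.1.0) whose ratios did not follow intron length (medians of 0.02 for short and -0.08 for long introns). Of 5879 genes 23.1% were past 1.5-fold, 12.6% downward and 10.5% upward. All 9 S phase genes with enough UMIs were lower at P14 and past 1.5-fold, with a median log2 ratio of -1.33, against -0.11 in cycling cells and -0.28 in newborn neurons. All 6 Shh receptors and transducers were lower at P14 past 1.5-fold, with a median of -1.49, against -0.82 in cycling cells. Boc was at 179 CPM at P10 and 50.6 at P14, Gli2 at 128 and 38.6, and Sfrp1 at 476 and 193. Newborn neuron genes were higher at P14 in 15 of 18, 4 past 1.5-fold, with a median of 0.40. Dcx, a microtubule protein of migrating neurons, was at 400 and 606 CPM (0.60, 0.39 to 0.81), and Cntn2 at 373 and 569 (0.61, 0.39 to 0.82). Median depth was 10842 and 12600 UMIs. The summed S phase list stood at 955 CPM at P10 and 410 at P14 with all UMIs, at 969 (870 to 1077) and 754 (637 to 886) with 5000 UMIs per cell, and at 1173 (979 to 1393) and 1296 (1011 to 1638) with 2000. The lower value at P14 was thus smaller in size at 5000 UMIs and not present at 2000, where the intervals overlapped. In WT, where P14 and P10 came from versions 7.1.0 and 5.0.0, 46.4% of 6565 genes were past 1.5-fold.

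The genotype term of a fit over all 4 libraries called 0 of 8887 genes (0.0%) by edgeR's quasi-likelihood test at an adjusted p of 0.05, with 186 genes at an unadjusted p under 0.05 and a smallest adjusted p of 0.869. DESeq2 called 0, with 210 at an unadjusted p under 0.05. The age term called 0 (0.0%) by edgeR, with 279 genes unadjusted, and 13 by DESeq2, 11 higher and 2 lower at P14. The fit has 1 residual degree of freedom, and on simulated data at the fitted dispersion of 0.155 it recovered 20.5% of 4-fold changes.

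Members also varied among themselves with their Atoh1 count. Those with at least 2 Atoh1 UMIs numbered 14 and 19 at P10 and 24 and 5 at P14 in WT and cKO. They had Ccnd1 at 216, 151, 152 and 125 CPM, against 82.4, 65.6, 60.7 and 21.7 CPM in members with 1 UMI. Sfrp1 was at 737, 629, 439 and 470 CPM against 507, 420, 235 and 149, and Neurod1 at 1258, 642, 1061 and 1208 against 1895, 1509, 1566 and 1769. In all 4 libraries Ccnd1 and Sfrp1 were thus higher and Neurod1 lower in members with more Atoh1 UMIs.

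Genes higher in members than in 1 of the neighbouring classes, chosen after the values were seen, were taken by their smallest difference over the 4 libraries. Against cycling cells it was a log2 ratio of 1.88 for Mia, 1.66 for L1cam, an axonal adhesion molecule, and 1.5 for Cntn2. Against newborn neurons it was 2.63 for Tcf7l2, a Wnt pathway factor, 2.63 for Zfp36l1, which promotes mRNA decay, 1.89 for Draxin, an axon guidance protein, and 1.80 for Hes6, which antagonises Hes1. Tcf7l2 stood at 68.1 and 55.0 CPM at P10 and 140 and 177 at P14 in members of WT and cKO, and at 8.93 to 19.1 CPM in newborn neurons. Hes6 stood at 145, 86.2, 89.9 and 58.6 CPM, and at no more than 36.5 CPM in newborn neurons. Members thus had more transcripts of L1cam and Cntn2 than cycling cells, and more of Tcf7l2 and Hes6 than newborn neurons.

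Transcripts of other cell types were present in part of the members. UMIs of at least 4 genes of the oligodendrocyte, microglia, endothelial, fibroblast, choroid plexus or astroglia list were found in 41 members, 8 and 7 at P10 and 15 and 11 at P14 in WT and cKO. The unipolar brush cell list was not part of this count. UMIs of at least 4 of its 7 genes were found in 25 members, and the list summed to 792 to 1037 CPM in newborn granule neurons. The 10 oligodendrocyte genes summed to 933, 224, 1021 and 3173 CPM, with 1, 2, 0 and 0 of them at 0, and 5 of 5 with enough UMIs were past 1.5-fold higher in P14 cKO. The 12 astroglial genes summed to 504, 311, 655 and 301 CPM, the 7 choroid plexus genes to 47.7, 31.1, 1856 and 61.3, and the 7 fibroblast genes to 40.9, 7.18, 221 and 10.7. In P14 WT a single member held 2746 choroid plexus UMIs and a single member 342 fibroblast UMIs, which are most of those sums. A single member also held 2130 of the 2381 oligodendrocyte UMIs of P14 cKO. The 5 erythroid genes summed to 12216 CPM in P10 WT, where 1 member held 3320 of 5379 UMIs, and to at most 50.6 CPM elsewhere. Microglial genes summed to 29.9 to 114.6 CPM, endothelial to 275 to 529, interneuron to 302 to 668, unipolar brush cell to 581 to 899, and the 9 Purkinje genes to 13.6 to 87.9, with 5 to 7 of them at 0. Without the 41 members the S phase list had a P14 ratio of -1.18 (-1.40 to -0.97), the Shh targets -0.57 and the newborn list 0.08, while Apoe, a lipoprotein of astroglia, went from -1.60 to 0.71 (0.19 to 1.21). Dissociation and immediate early genes were higher in P14 cKO members in 5 of 6, 3 past 1.5-fold (median 0.60), with Egr1 at 98.6 and 228 CPM and Fos at 47.4 and 74.6 CPM. The part of these transcripts in the other differences was not tested, beyond the values without the 41 members.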

How the data were processed

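The authors deposited counts, UMIs per gene and cell barcode without normalization, for 4 libraries. Seurat 4.1.3, Cell Ranger 3.0.2 and mm10 are named in the submitters' processing notes. Per the file headers, however, both P14 matrices come from Cell Ranger 7.1.0, that of P10 cKO from 7.0.1 and that of P10 WT from 5.0.0. The sources used here do not say if reads in introns counted. The long-read data of the title were not analysed here.

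Cells with under 500 genes (2301, 104, 401 and 940 barcodes) or over 20% mitochondrial UMIs (110, 22, 41 and 33 more) were left out. Doublets were kept, since the rule has no doublet caller. Scrublet in Scanpy 1.11.5 called 681, 5, 0 and 203 cells automatically, and a common score threshold, chosen after this was seen, would remove 0, 3, 4 and 1 members. Microglia and macrophages served as cells without Atoh1. For each class the UMIs of its cells were added up per gene and set against their sum. A log2 ratio had 0.5 UMI added to both counts and was given for genes with at least 50 UMIs over both groups, and a ratio counted as past the fold beyond 1.5. Intervals are exact Poisson, conditional binomial or binomial at 95%. UMIs of 1 cell are not independent samples, and the intervals hold counting error only.

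The genotype and age terms were fitted in edgeR 4.0.16 (R 4.3.3; filterByExpr, TMM, quasi-likelihood F test, Benjamini-Hochberg) and in DESeq2 1.42.0, with the edgeR fit tested on simulated data. At a dispersion of 0.05 it recovered 79.5% of 4-fold changes with 3 false calls among 8587 genes, and at 0.155 it recovered 20.5% with 0 false calls among 8481. Intron lengths came from GENCODE vM21, to which 32235 of 32285 gene IDs were matched. Tables were made with Python 3.11.15, NumPy 2.4.6, pandas 2.3.3 and SciPy 1.17.1, figures with matplotlib 3.10.9.

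Members, lists and tests were chosen with earlier results of these data known. Named genes were the 5 markers, Eftud2, up to 5 genes per pathway list by level with any past 1.5-fold, and up to 10 extremes per comparison, of which the text names fewer. Alternatives were 1000 genes, 10% mitochondrial UMIs, doublets removed, 2 Atoh1 UMIs, no Nhlh1 or Cntn2 UMI, 2000 UMIs per cell, 20 UMIs per gene, 3 UMIs added, short introns, library totals, DESeq2 and no low count filter. Thinning to 5000 UMIs and leaving out members with UMIs of at least 4 genes of another cell type were added after seeing the data. The values of 1 gene are not reported here.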

Additional observations from a re-analysis of the deposited data

Results flagged for a closer look

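The share of cells that were members had a log2 ratio of cKO over WT of 1.40 at P10 and of -0.54 at P14, opposite directions at the ages, each from 1 library per genotype. The difference between the ages was not tested.

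The median log2 ratio of Shh receptors and transducers in members was 1.71 at P10 and -0.37 at P14, again in opposite directions, and the difference was not tested. The program versions of the P10 libraries differed, and genes with long introns had a median of 1.63 there.

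Dissociation and immediate early genes had a median of -1.24 at P10 and 0.60 at P14. In cycling cells the medians were -0.77 and 0.37, and in newborn neurons -1.18 and 0.27. The difference was not tested.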

How the results depend on the processing

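Of 60 values of comparisons under an alternative, 51 stayed near the reported value, 8 moved and 1 reversed. For gene lists these counts were 37, 23 and 4 of 64, and for single genes 173, 91 and 10 of 274. Where no cause is named below, the cause was not tested. Members without Nhlh1 and Cntn2 UMIs (19, 2, 27 and 3 cells) gave share ratios of -2.13 at P10, reversed, and -1.88 at P14, 65.7% of genes past 1.5-fold at P14, 1 genotype call and 3 age calls. They also gave 1.03 for Gli3, -0.091 for Fgf14 and -1.79 for Pcdh9, from few UMIs. Cells of 2000 UMIs gave a P10 share ratio of 0.61 and, at P14, reversed values for the S phase (0.32), G1 (0.17) and Shh target (0.27) lists, Ccnd2 (0.31), Dut (0.044), Mcm3 (0.65) and Mcm7 (0.28). Cells of 5000 UMIs gave 0.12 for Pcna. Members with at least 2 Atoh1 UMIs gave 0.0048 for the Shh targets and 0.19 for Mfap4. Without members that held UMIs of at least 4 genes of another cell type, Apoe was at 0.71. With no low count filter, edgeR called 10 genes by genotype and 43 by age among 17642. With the filter, DESeq2 called 13 by age among 8887. Leaving out a library was not possible, since it leaves no residual degree of freedom. No paired analysis was possible because each group is 1 library and the labels carry no replicate number.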
